A study of Mus musculus with 24 samples.

Results

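The comparison described here sets neutrophils from the liver against neutrophils from the blood of mice under nanoparticle therapy, across all genes. The members are 4 of the 24 libraries of the series, named by tissue and treatment in the labels: treated liver (n = 2) and treated blood (n = 2). All 4 came from mice of the NOD.c3c4 strain that had received PDC166-coated nanoparticles by vein, in 10 doses. The series calls such particles pMHC-NP, for peptide and MHC. NOD.c3c4 mice develop an autoimmune disease of the bile ducts and serve as a model of primary biliary cholangitis. The same table holds untreated liver (n = 2) and untreated blood neutrophils (n = 3) of that strain, which entered the fit to estimate the spread. A second table holds treated liver neutrophils from mice that also received an isotype control antibody (n = 3), used here only for levels. Age, sex, the way the neutrophils were isolated and whether libraries came from separate or pooled animals are not given in the sources used here, so p-values measure the spread between libraries, which may be technical.

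Neutrophils are made in the bone marrow, where dividing precursors fill azurophil granules first, specific granules next and gelatinase granules last. The messenger RNA of a granule protein is made mainly at the stage at which its granule forms, so granule transcripts are known as a record of maturation. Mature cells circulate in blood and enter tissues through adhesion receptors and chemoattractant receptors, and the sinusoids of the liver hold a pool of them. The question of the comparison, per the series design, is what sets apart the neutrophils found in the liver of treated mice.

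The labels were first checked against marker genes. The 20 neutrophil identity genes summed to 226357 and 224284 CPM in treated liver (counts scaled to library size after TMM), against 97942 and 94855 CPM in treated blood. S100a9, a calprotectin subunit, took 8.10% and 7.82% of counts in treated liver, against 4.32% and 4.14% in treated blood. The counts of markers that follow are of genes past an adjusted p of 0.05 in edgeR's quasi-likelihood F test, by which 9.71% of all tested genes were higher and 11.6% lower in liver. Of the 20 neutrophil identity genes 5 were higher in liver, Camp, Ltf, Ngp and Elane among them, 3 were lower, Csf3r and Cxcr2 among them, and 12 did not pass. With 1 treated library left out 4 to 5 were higher and 1 to 2 lower. Thus both groups carried neutrophil markers, with a higher sum in liver and members that went both ways. All 12 platelet markers were lower in liver, with sums of 76.0 and 73.1 CPM in treated liver, against 2149 and 2100 CPM in treated blood. Of 19 T and NK cell markers, 17 were lower (11 to 15 with 1 treated library left out) and 1 was higher in liver, with sums of 260 and 279 CPM in treated liver, against 618 and 619 CPM in treated blood. The higher one was Cd3d, a subunit of the T cell receptor complex, which had 240.0 and 262 CPM in treated liver, against 34.8 and 35.5 CPM in treated blood and made up most of the liver sum. Cd3e, another subunit, had 0.396 and 0.134 CPM in treated liver, with both blood libraries above 10 CPM. Of 14 markers of Kupffer cells and macrophages 10 were lower in liver, or 5 to 6 with 1 treated library left out (sums of 606 and 641 CPM in treated liver, against 1686 and 1606 CPM in treated blood). Clec4f, a defining Kupffer cell gene, was near 0 in both groups. It had 0.185 and 0.179 CPM in treated liver, against 0.248 and 0.225 CPM in treated blood. Monocyte markers summed to 914 and 723 CPM in treated liver, against 1819 and 1633 CPM in treated blood. Of 12 such markers 5 were lower and none was higher, with a median log2 fold change of −1.30. B and plasma cell markers summed to 1662 and 1382 CPM in treated liver, against 2281 and 2286 CPM in treated blood. Of these 14 markers 10 were lower and 1, Ighm, was higher, with a median of −2.49. In both lists fewer markers were lower with 1 treated library left out.

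Hepatocyte markers were low in both groups and yet differed between them. Of 20 hepatocyte markers 17 were higher in liver and none was lower, with a median log2 fold change of 5.62, or 5.33 with the genes without a count in blood set to their bound. Their sums were 311 and 283 CPM in treated liver, against 341 and 321 CPM in treated blood, with most of each sum from Trf, the transferrin gene, at 203 and 195 CPM in treated liver, against 330 and 314 CPM in treated blood. Alb, the albumin gene, had 30.2 and 24.6 CPM in treated liver, against 0.718 and 0.082 CPM in treated blood, and the sum of the list averaged 18376 CPM in untreated liver. Hemoglobin genes split the libraries by number instead of tissue: the erythroid list summed to 2448 and 793 CPM in treated liver, against 3316 and 454 CPM in treated blood, and the high library of each tissue is the one whose library name carries the number 2. These are bulk RNA values, in which fewer cells of a type and less RNA per cell cannot be told apart. The part of other cell types in the gene differences was not tested.

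**Figure D1:**
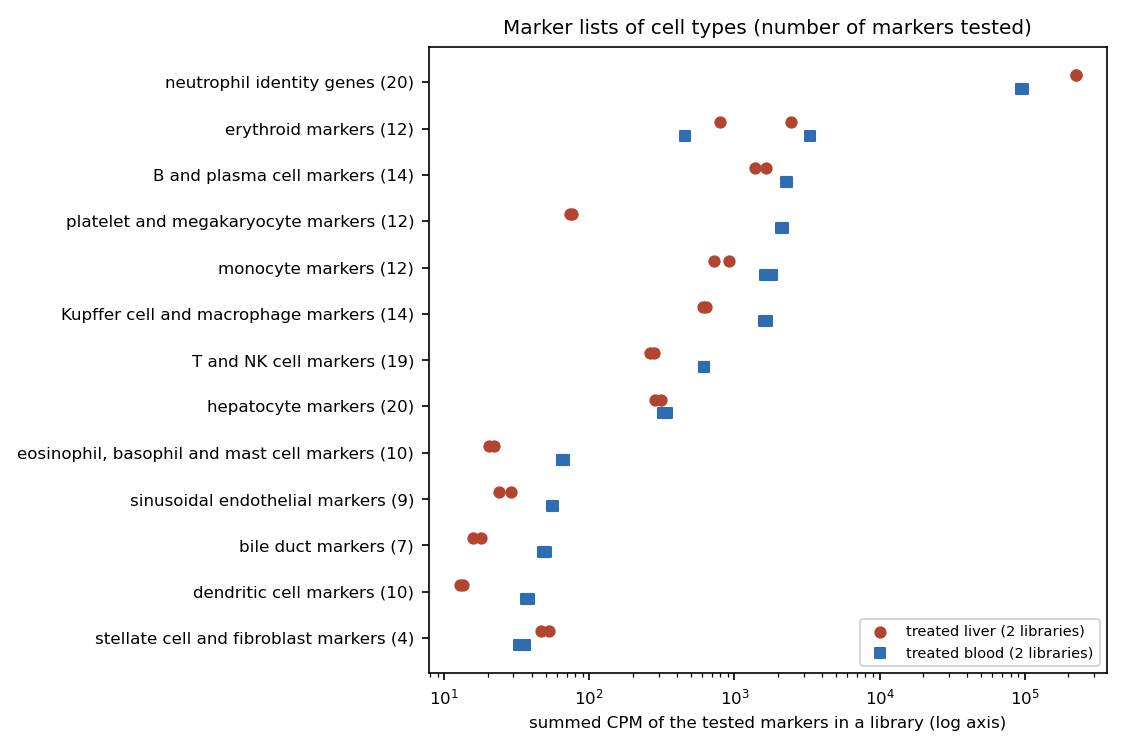
Summed CPM of the tested markers of each cell type in each library (log axis), with treated liver as circles and treated blood as squares and the number of tested markers in brackets. The platelet sums lie at 76.0 and 73.1 CPM in treated liver, against 2149 and 2100 CPM in treated blood, whereas the neutrophil identity sums lie higher in treated liver.

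Across 16719 tested genes, 1624 were higher in treated liver than in treated blood (9.71% of those tested) and 1944 were lower (11.6%), by edgeR's quasi-likelihood F test at a Benjamini-Hochberg adjusted p below 0.05. In sum 3568 genes differed (21.3%). The median log2 fold change of all tested genes was 0.003. The libraries held 38341827 and 46384502 counts in treated liver, against 35342661 and 42109739 counts in treated blood. Both liver libraries lay above both blood libraries for 38.1% of tested genes, and below both for 37.8%. Libraries of a tissue resembled each other, with Pearson's r of log2 CPM across genes of 0.988 between the liver libraries and 0.989 between the blood libraries, against 0.906 to 0.909 between tissues. With 2 libraries a group the number of calls depended on the fit: a fit of the 4 treated libraries alone called 8188 genes, leaving out untreated blood replicate 3 gave 5589, and leaving out 1 treated library at a time gave 1467 to 1611. Where such a fit leaves a lone library in a group, its spread is borrowed from the remaining groups. Counts with 1 treated library left out, here and below, are ranges over the 4 fits that drop 1 treated liver or treated blood library. Those fits also called fewer of all tested genes in each direction, so a smaller list count in them is not particular to that list. The shares of 9.71% and 11.6% belong to the main fit and not to those fits.

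**Figure D2:**
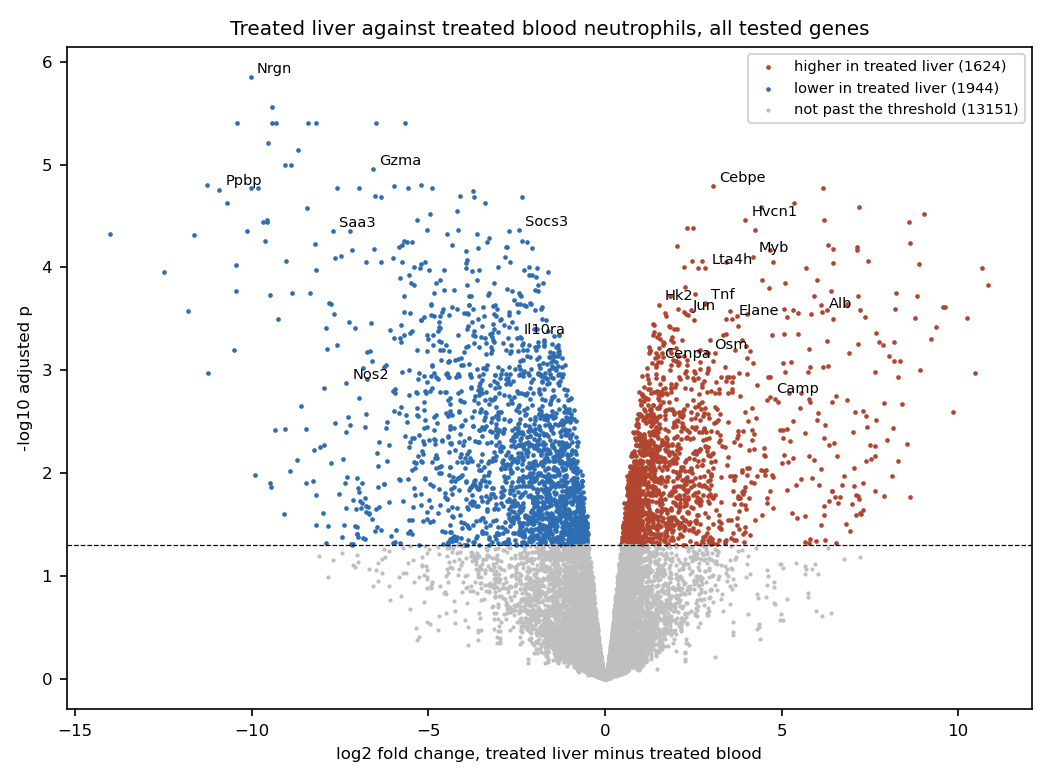
Each point is 1 of 16719 tested genes, with the log2 fold change of treated liver minus treated blood on the x axis and −log10 of the adjusted p on the y axis. The dashed line marks the threshold, with 1624 genes higher in treated liver (right) and 1944 lower (left) above it.

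Many genes of specific granule proteins were higher in liver. Of 20 tested specific granule genes 11 were higher in liver and none was lower, with a median log2 fold change of 1.29, and 4 to 6 were higher with 1 treated library left out. Camp, which encodes the precursor of the antimicrobial peptide CRAMP, had 8174 and 7238 CPM in treated liver, against 291 and 319.9 CPM in treated blood. Its liver libraries lay far above its blood libraries (log2 fold change 4.66 ± 0.70, adjusted p = 0.00183; values after ± are standard errors of the fit). Ltf encodes lactoferrin, the iron-binding protein of specific granules, and had 20969 and 19211 CPM in treated liver, against 1118 and 1146 CPM in treated blood (log2 fold change 4.15 ± 0.65, adjusted p = 0.00235). Ngp, neutrophilic granule protein, had 21437 and 19191 CPM in treated liver, against 2559 and 2551 CPM in treated blood (log2 fold change 2.99 ± 0.64, adjusted p = 0.0104). Its adjusted p was 0.0814 and 0.0801 without blood replicate 2 and blood replicate 3. Orm1, an orosomucoid gene, had 42.5 and 30.2 CPM in treated liver, against 2.80 and 2.54 CPM in treated blood (log2 fold change 3.77 ± 0.66, adjusted p = 0.00391). The calprotectin genes S100a8 and S100a9 were higher in both liver libraries without passing the threshold: S100a8 had 46567 and 48698 CPM in treated liver, against 20448 and 19775 CPM in treated blood (adjusted p = 0.058), and S100a9 had an adjusted p of 0.0666. Both passed it with DESeq2, at 0.00856 for S100a8 and 0.0114 for S100a9, with limma-voom, and without untreated blood replicate 1 or untreated blood replicate 3.

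Azurophil granule genes, which belong to the promyelocyte stage, were split. Of 12 tested 6 were higher in liver and 3 were lower, with a median log2 fold change of 1.04, and 4 to 6 were higher and 3 lower with 1 treated library left out. Elane, the gene of neutrophil elastase, had 55.4 and 29.5 CPM in treated liver, against 2.97 and 4.02 CPM in treated blood (log2 fold change 3.60 ± 0.38, adjusted p = 0.000315). The liver libraries differed from each other here, but the lower of them still exceeded both blood libraries. Mpo, myeloperoxidase, had 58.3 and 28.7 CPM in treated liver, against 6.64 and 6.43 CPM in treated blood (log2 fold change 2.73 ± 0.48, adjusted p = 0.00397). Ms4a3, a gene of granulocyte and monocyte progenitors, had 43.4 and 25.9 CPM in treated liver, against 3.39 and 3.81 CPM in treated blood (log2 fold change 3.26 ± 0.53, adjusted p = 0.00267). Both showed the same order as Elane, with liver replicate 1 at the top. Cd63, a tetraspanin of azurophil granule membranes, was closer between replicates, at 84.5 and 86.2 CPM in treated liver, against 26.8 and 27.5 CPM in treated blood (log2 fold change 1.65 ± 0.19, adjusted p = 0.000534). Ctsc went the other way. It encodes cathepsin C, which activates the serine proteases of these granules, and had 115 and 83.6 CPM in treated liver, against 443 and 405 CPM in treated blood (log2 fold change −2.10 ± 0.29, adjusted p = 0.0013). Of 13 genes of gelatinase granules and secretory vesicles none was higher and 2 were lower, or 1 to 2 with 1 treated library left out. One of these was Cd14, the co-receptor for lipopolysaccharide, with 44.3 and 38.4 CPM in treated liver, against 333 and 336 CPM in treated blood (log2 fold change −3.02 ± 0.52, adjusted p = 0.00381).

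The transcription factor of the specific granule stage was higher in liver as well. Cebpe, required for the late stage of granule formation, had 137 and 122 CPM in treated liver, against 15.7 and 15.6 CPM in treated blood (log2 fold change 3.05 ± 0.17, adjusted p = 1.63e-05). Myb, a factor of proliferating progenitors, had 26.3 and 24.9 CPM in treated liver, against 1.39 and 1.43 CPM in treated blood (log2 fold change 4.18 ± 0.34, adjusted p = 7.84e-05). In the list of 20 granulopoiesis factors 4 were higher in liver (Cebpe, Myb, Cebpa and Gfi1) and 3 were lower (Xbp1, Bach1 and Lef1), and with 1 treated library left out 2 were higher and 1 lower. Bach1 was among those that lost their call with each of the 4, at an adjusted p of 0.0813 to 0.151. Xbp1, a factor of the unfolded protein response, had 76.2 and 66.2 CPM in treated liver, against 303 and 294 CPM in treated blood (log2 fold change −2.07 ± 0.18, adjusted p = 0.000119).

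The promoters of 2 specific granule genes are shown because they hold the letters bound by C/EBP factors, to which Cebpe belongs. They are the 150 bases before the annotated start, on the strand of the gene, from RefSeq annotation of build GRCm38.p6: Ltf at chr9:111019142-111019291 (plus strand) and Ngp at chr9:110419658-110419807 (plus strand). Capitals mark TTGCNNAA on either strand.
Ltf: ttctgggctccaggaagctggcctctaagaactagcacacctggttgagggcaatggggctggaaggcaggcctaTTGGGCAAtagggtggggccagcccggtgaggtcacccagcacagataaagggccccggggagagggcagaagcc
Ngp: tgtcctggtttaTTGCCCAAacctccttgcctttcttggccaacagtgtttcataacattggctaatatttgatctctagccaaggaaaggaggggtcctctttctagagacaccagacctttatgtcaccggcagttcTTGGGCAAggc
The match of Ltf spans bases -75 to -68 from the start, and those of Ngp span -138 to -131 and -11 to -4. In the 250 bases before the start, 5 of 18 specific granule promoters in the table held this motif on either strand, against 9.55% of all 27025 promoters. A match is a description of letters and not evidence of a bound site.

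**Figure D3:**
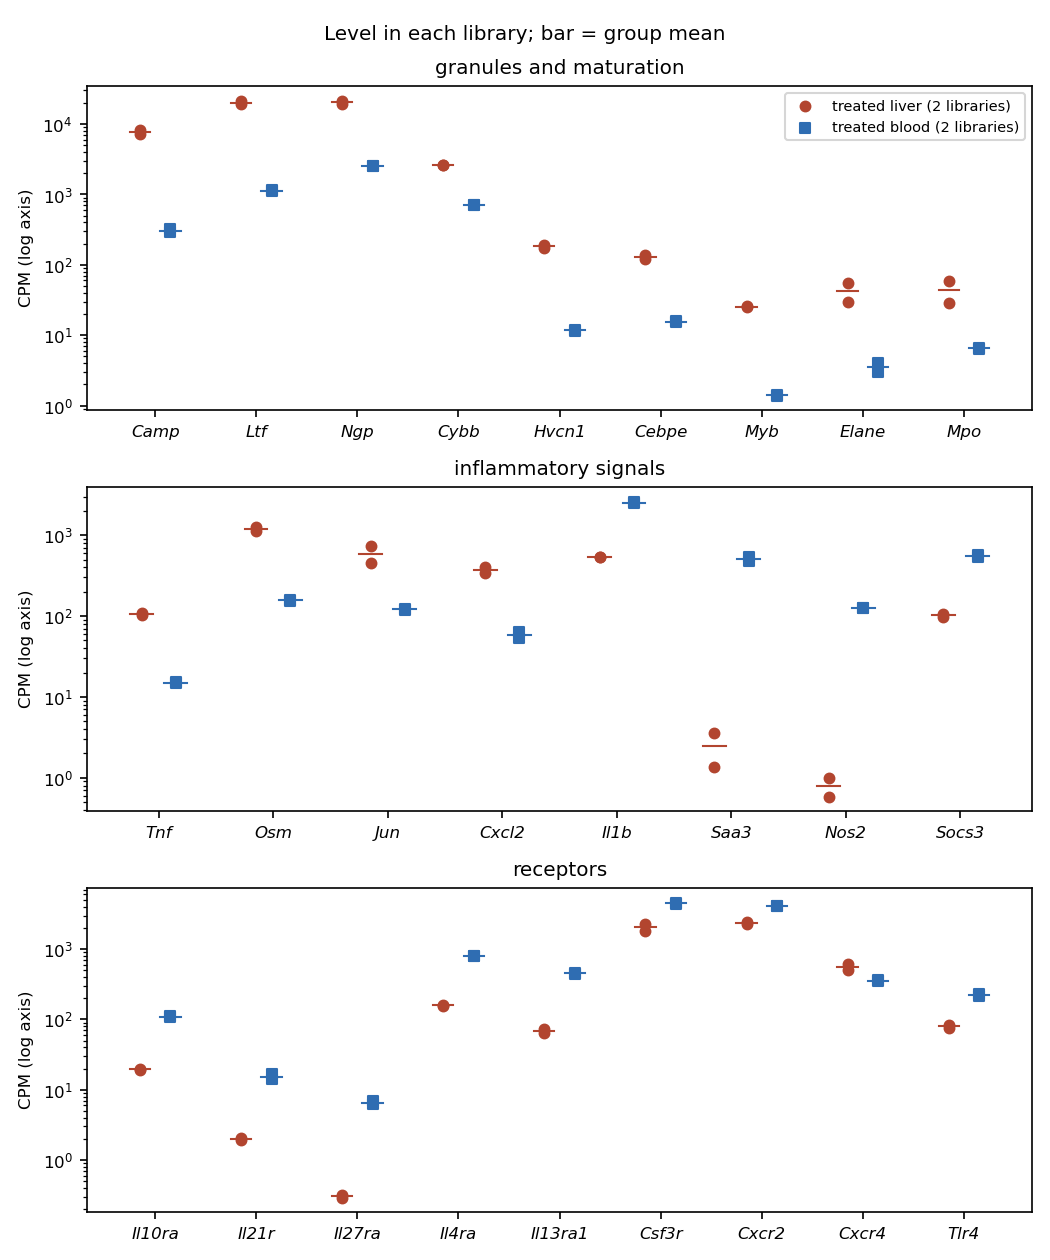
CPM of single genes in each library (log axes), with treated liver as circles and treated blood as squares and a bar at the mean of the 2 libraries. Granule and maturation genes (top) lie higher in treated liver, inflammatory genes (middle) lie on both sides, and most receptors (bottom) lie lower in treated liver, apart from Cxcr4.

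Genes of the NADPH oxidase, the enzyme that makes superoxide, were in part higher in liver. Of 7 genes 4 were higher and none was lower, with a median log2 fold change of 0.745, and 2 were higher with 1 treated library left out. Hvcn1, the proton channel that keeps the oxidase running by balancing charge, had 192 and 175 CPM in treated liver, against 11.7 and 11.7 CPM in treated blood (log2 fold change 3.97 ± 0.27, adjusted p = 3.47e-05). Cybb, the catalytic gp91phox subunit, had 2614 and 2592 CPM in treated liver, against 718 and 706 CPM in treated blood (log2 fold change 1.87 ± 0.27, adjusted p = 0.00137). Both genes kept their call whichever treated library was left out, whereas Cyba (adjusted p of 0.132 to 0.202) and Ncf1 (0.145 to 0.201) lost theirs with each of the 4.

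Genes of dividing cells were higher in liver. Of 30 DNA replication genes 22 were higher in liver and none was lower, with a median log2 fold change of 1.70, and of 30 mitosis genes 29 were higher and none was lower, with a median of 2.42. With 1 treated library left out, 9 to 15 replication genes and 14 to 24 mitosis genes were higher. Rrm2, a subunit of ribonucleotide reductase, had 37.3 and 22.5 CPM in treated liver, against 4.31 and 6.39 CPM in treated blood (log2 fold change 2.48 ± 0.38, adjusted p = 0.00194). Mcm5, of the replicative helicase, had 29.1 and 18.6 CPM in treated liver, against 5.57 and 5.80 CPM in treated blood (log2 fold change 2.07 ± 0.27, adjusted p = 0.000826). Among mitosis genes, Birc5, which encodes survivin of the chromosomal passenger complex, had 24.99 and 15.01 CPM in treated liver, against 2.90 and 3.30 CPM in treated blood (log2 fold change 2.69 ± 0.35, adjusted p = 0.000838). Cenpa, the centromeric histone, had 42.6 and 36.6 CPM in treated liver, against 13.1 and 14.7 CPM in treated blood (log2 fold change 1.51 ± 0.19, adjusted p = 0.000836). Ube2c, a ubiquitin-conjugating enzyme of the anaphase-promoting complex, had 20.3 and 13.3 CPM in treated liver, against 2.77 and 3.03 CPM in treated blood (log2 fold change 2.53 ± 0.34, adjusted p = 0.00102). Ccnb1, the mitotic cyclin B1, had 14.3 and 11.5 CPM in treated liver, against 2.08 and 2.32 CPM in treated blood (log2 fold change 2.55 ± 0.34, adjusted p = 0.00106). Liver replicate 1 was above liver replicate 2 in each of these 6 genes, and both were above the blood libraries. In that library Tfrc, the transferrin receptor of the erythroid list, was also higher, at 58.7 and 29.0 CPM in treated liver, against 7.21 and 8.30 CPM in treated blood (log2 fold change 2.5 ± 0.45, adjusted p = 0.00453). The part of erythroid precursors in the cell cycle genes was not tested.

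The promoters of Ccnb1 and Ube2c are shown for the CCAAT box, a motif long described in promoters of mitotic genes. Both are 150 bases before the start on the strand of the gene, from RefSeq annotation of build GRCm38.p6, Ccnb1 at chr13:100786487-100786636 (minus strand) and Ube2c at chr2:164769779-164769928 (plus strand), with capitals at CCAAT on either strand.
Ccnb1: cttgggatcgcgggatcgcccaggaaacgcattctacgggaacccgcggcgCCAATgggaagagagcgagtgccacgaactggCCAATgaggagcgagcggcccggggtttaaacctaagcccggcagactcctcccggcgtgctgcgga
Ube2c: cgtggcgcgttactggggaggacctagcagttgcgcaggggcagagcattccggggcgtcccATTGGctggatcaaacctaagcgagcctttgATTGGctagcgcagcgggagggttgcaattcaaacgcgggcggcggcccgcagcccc
Each holds a pair of matches, at -99 to -95 and -67 to -63 in Ccnb1 and at -88 to -84 and -57 to -53 in Ube2c. In the 250 bases before the start the box was present in 22 of 26 mitosis promoters and 15 of 24 replication promoters, against 34.5% of all promoters.

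Inflammatory genes did not move as a block. Tnf, the cytokine TNF, had 109 and 103 CPM in treated liver, against 15.1 and 14.9 CPM in treated blood (log2 fold change 2.83 ± 0.28, adjusted p = 0.000225). Osm, oncostatin M of the interleukin-6 family, had 1127 and 1246 CPM in treated liver, against 159.6 and 154 CPM in treated blood (log2 fold change 2.92 ± 0.36, adjusted p = 0.000677). The liver libraries lay close together and far above the blood libraries for both cytokines. Of 23 immediate-early genes 9 were higher in liver and 1 was lower, with a median log2 fold change of 0.72, and 2 to 7 were higher and 0 lower with 1 treated library left out. Jun, a subunit of the AP-1 transcription factor, had 459 and 726 CPM in treated liver, against 122 and 119.9 CPM in treated blood (log2 fold change 2.29 ± 0.24, adjusted p = 0.000284). Its partner Fos had 3485 and 4192 CPM in treated liver, against 1213 and 1134 CPM in treated blood (log2 fold change 1.71 ± 0.31, adjusted p = 0.00504). Without blood replicate 3 the adjusted p of Fos was 0.0541. Cxcl2, a chemokine that attracts neutrophils, had 337 and 404 CPM in treated liver, against 53.7 and 63.9 CPM in treated blood (log2 fold change 2.65 ± 0.65, adjusted p = 0.0182). Its adjusted p was 0.0589 to 0.127 with 1 treated library left out, so that each of the 4 ended its call. In the chemokine list of 17 genes 3 were higher and 3 lower, against 0 to 1 higher and 1 lower with 1 treated library left out. Ccl5, a chemokine that lymphocytes and platelets also make, had 2.01 and 1.55 CPM in treated liver, against 111 and 111 CPM in treated blood (log2 fold change −5.96 ± 0.34, adjusted p = 1.63e-05).

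Several interleukin-1 genes and other products of activated neutrophils were lower in liver. Of 18 genes of the interleukin-1 family and the inflammasome none was higher and 7 were lower, with a median log2 fold change of −0.87. There were 6 lower whichever treated library was left out. Il1b, interleukin-1β, had 540.4 and 541 CPM in treated liver, against 2593 and 2473 CPM in treated blood (log2 fold change −2.23 ± 0.33, adjusted p = 0.00174). Il1rap, the shared accessory chain of interleukin-1 receptors, had 43.8 and 41.5 CPM in treated liver, against 238 and 226 CPM in treated blood (log2 fold change −2.44 ± 0.23, adjusted p = 0.000178). Casp4, the caspase that senses intracellular lipopolysaccharide, had 42.1 and 39.7 CPM in treated liver, against 136 and 136 CPM in treated blood (log2 fold change −1.73 ± 0.25, adjusted p = 0.00152). Nos2, inducible nitric oxide synthase, was almost absent from liver, with 1.00 and 0.583 CPM in treated liver, against 126 and 127 CPM in treated blood (log2 fold change −7.33 ± 1.03, adjusted p = 0.00134). Saa3, an acute-phase serum amyloid, had 3.57 and 1.34 CPM in treated liver, against 543 and 475 CPM in treated blood (log2 fold change −7.71 ± 0.55, adjusted p = 4.41e-05). Wfdc17, a small secreted protein of myeloid cells, had 112 and 76.9 CPM in treated liver, against 1649 and 1530.2 CPM in treated blood (log2 fold change −4.07 ± 0.62, adjusted p = 0.00197). In the list of 24 TNF and NF-kB feedback genes 5 were higher, Tnf among them, and 9 were lower. With 1 treated library left out 2 to 3 were higher and 4 to 5 lower. Tnfrsf1b, TNF receptor 2, had 89.4 and 86.1 CPM in treated liver, against 378 and 369 CPM in treated blood (log2 fold change −2.09 ± 0.21, adjusted p = 0.000228).

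Many genes induced by interferons were lower in liver. Of 39 type I interferon response genes none was higher and 21 were lower, with a median log2 fold change of −1.22, and 7 to 10 were lower with 1 treated library left out. Oasl2, an oligoadenylate synthetase-like antiviral protein, had 164 and 147 CPM in treated liver, against 716 and 734 CPM in treated blood (log2 fold change −2.22 ± 0.33, adjusted p = 0.00168). Trim30a, a ubiquitin ligase family member, had 164 and 159 CPM in treated liver, against 601 and 593 CPM in treated blood (log2 fold change −1.89 ± 0.17, adjusted p = 0.000149). Of 16 interferon-gamma induced GTPases, which attack vacuoles that hold microbes, none was higher and 13 were lower, with a median of −1.95, and 3 to 6 were lower with 1 treated library left out. Irgm2 had 32.1 and 30.8 CPM in treated liver, against 229 and 227 CPM in treated blood (log2 fold change −2.86 ± 0.42, adjusted p = 0.00172). Igtp had 59.5 and 50.1 CPM in treated liver, against 265 and 261 CPM in treated blood (log2 fold change −2.26 ± 0.38, adjusted p = 0.00337). Gbp7 had 38.5 and 34.1 CPM in treated liver, against 127 and 139 CPM in treated blood (log2 fold change −1.87 ± 0.30, adjusted p = 0.00267). Gbp2 had 194 and 123 CPM in treated liver, against 788 and 813 CPM in treated blood (log2 fold change −2.34 ± 0.43, adjusted p = 0.00526). Its adjusted p was 0.0627 without liver replicate 2. For these 4 GTPases both liver libraries lay below both blood libraries. Ifngr1, the ligand-binding chain of the interferon-gamma receptor, was lower as well, at 104 and 98.8 CPM in treated liver, against 365 and 364 CPM in treated blood (log2 fold change −1.85 ± 0.24, adjusted p = 0.000948). Nlrc5, the activator of MHC class I genes, had 9.88 and 10.24 CPM in treated liver, against 53.0 and 58.8 CPM in treated blood (log2 fold change −2.47 ± 0.44, adjusted p = 0.0041), and 4 of 19 MHC class I presentation genes were lower with none higher. Of these genes 1 to 2 were lower with 1 treated library left out, and 4 to 8 over the other scalings and tools.

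The promoters of 3 of these GTPases are shown for the interferon regulatory factor motif GAAANNGAAA, searched on both strands and marked in capitals. They are 150 bases before the start on the plus strand, from RefSeq annotation of build GRCm38.p6: Igtp at chr11:58199406-58199555, Gbp7 at chr3:142530186-142530335 and Gbp2 at chr3:142620513-142620662.
Igtp: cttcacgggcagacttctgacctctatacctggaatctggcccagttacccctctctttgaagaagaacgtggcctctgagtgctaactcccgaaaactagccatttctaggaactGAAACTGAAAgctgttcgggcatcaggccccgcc
Gbp7: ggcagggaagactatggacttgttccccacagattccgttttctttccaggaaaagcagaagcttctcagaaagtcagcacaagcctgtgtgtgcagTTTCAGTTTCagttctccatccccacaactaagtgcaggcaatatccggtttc
Gbp2: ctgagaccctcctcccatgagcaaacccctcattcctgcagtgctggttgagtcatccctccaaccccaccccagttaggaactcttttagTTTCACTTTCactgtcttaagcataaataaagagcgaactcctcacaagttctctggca
The interferon regulatory factor match spans -34 to -25 in Igtp, -53 to -44 in Gbp7 and -59 to -50 in Gbp2. In the 250 bases before the start, 9 of 10 GTPase promoters and 12 of 29 type I interferon promoters held the interferon regulatory factor motif, against 3.04% of all promoters.

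Many receptors for cytokines were lower in liver. A list of receptor chains and related chains was drawn up around the targets named in the antibody arms of the series, which used other mice. It holds 12 tested genes, of which none was higher and 10 were lower, with a median log2 fold change of −1.99. There were 6 lower whichever treated library was left out. Il10ra, the ligand-binding chain of the interleukin-10 receptor, had 19.3 and 19.9 CPM in treated liver, against 110.4 and 109 CPM in treated blood (log2 fold change −2.48 ± 0.29, adjusted p = 0.000486). Il27ra had 0.291 and 0.314 CPM in treated liver, against 6.34 and 6.80 CPM in treated blood (log2 fold change −4.43 ± 0.56, adjusted p = 0.000808). Il2rg, the common gamma chain, had 25.5 and 20.1 CPM in treated liver, against 68.8 and 70.4 CPM in treated blood (log2 fold change −1.61 ± 0.26, adjusted p = 0.00275). Il21r, which pairs with that chain, had 2.06 and 1.93 CPM in treated liver, against 14.2 and 16.5 CPM in treated blood (log2 fold change −2.95 ± 0.55, adjusted p = 0.00539). Its adjusted p was 0.0505 and 0.0595 without liver replicate 1 and liver replicate 2. Tgfbr2, of the TGF-β receptor, had 77.5 and 80.7 CPM in treated liver, against 169 and 163 CPM in treated blood (log2 fold change −1.07 ± 0.22, adjusted p = 0.00839). Each of the 4 left-out libraries ended its call, at an adjusted p of 0.0509 to 0.0732. In the list of 19 other cytokine and growth factor receptors 10 were lower and 1 was higher. There were 5 to 6 lower and 0 higher when 1 treated library was left out. Il4ra, shared by the interleukin-4 and interleukin-13 receptors, had 156 and 159 CPM in treated liver, against 802 and 801 CPM in treated blood (log2 fold change −2.34 ± 0.30, adjusted p = 0.000787). Its partner Il13ra1 had 73.6 and 64.8 CPM in treated liver, against 464 and 445 CPM in treated blood (log2 fold change −2.72 ± 0.19, adjusted p = 4.41e-05). For both chains the 2 libraries of a tissue lay close together and the tissues did not overlap. Csf3r, the G-CSF receptor, had 1838 and 2250.0 CPM in treated liver, against 4414 and 4578 CPM in treated blood (log2 fold change −1.14 ± 0.24, adjusted p = 0.009). Its adjusted p was 0.0603, 0.0662 and 0.097 without blood replicate 2, blood replicate 3 and liver replicate 1.

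Downstream of these receptors, 7 of 18 JAK-STAT and SOCS genes were lower and none was higher. There were 2 to 3 lower when 1 treated library was left out. Socs3, the feedback inhibitor of G-CSF and interleukin-6 signalling, had 105 and 98.4 CPM in treated liver, against 571 and 533 CPM in treated blood (log2 fold change −2.44 ± 0.17, adjusted p = 4.32e-05). Among 23 Toll-like receptor and adaptor genes 10 were lower and 2 were higher. There were 7 lower and 1 higher whichever treated library was left out. Tlr4, the lipopolysaccharide receptor, had 75.8 and 83.5 CPM in treated liver, against 226 and 216 CPM in treated blood (log2 fold change −1.47 ± 0.18, adjusted p = 0.000726). Myd88, the shared adaptor, had 167 and 168 CPM in treated liver, against 436 and 413 CPM in treated blood (log2 fold change −1.34 ± 0.18, adjusted p = 0.000911). Together with Cd14, described above, these genes of lipopolysaccharide sensing were lower in both liver libraries.

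**Figure D4:**
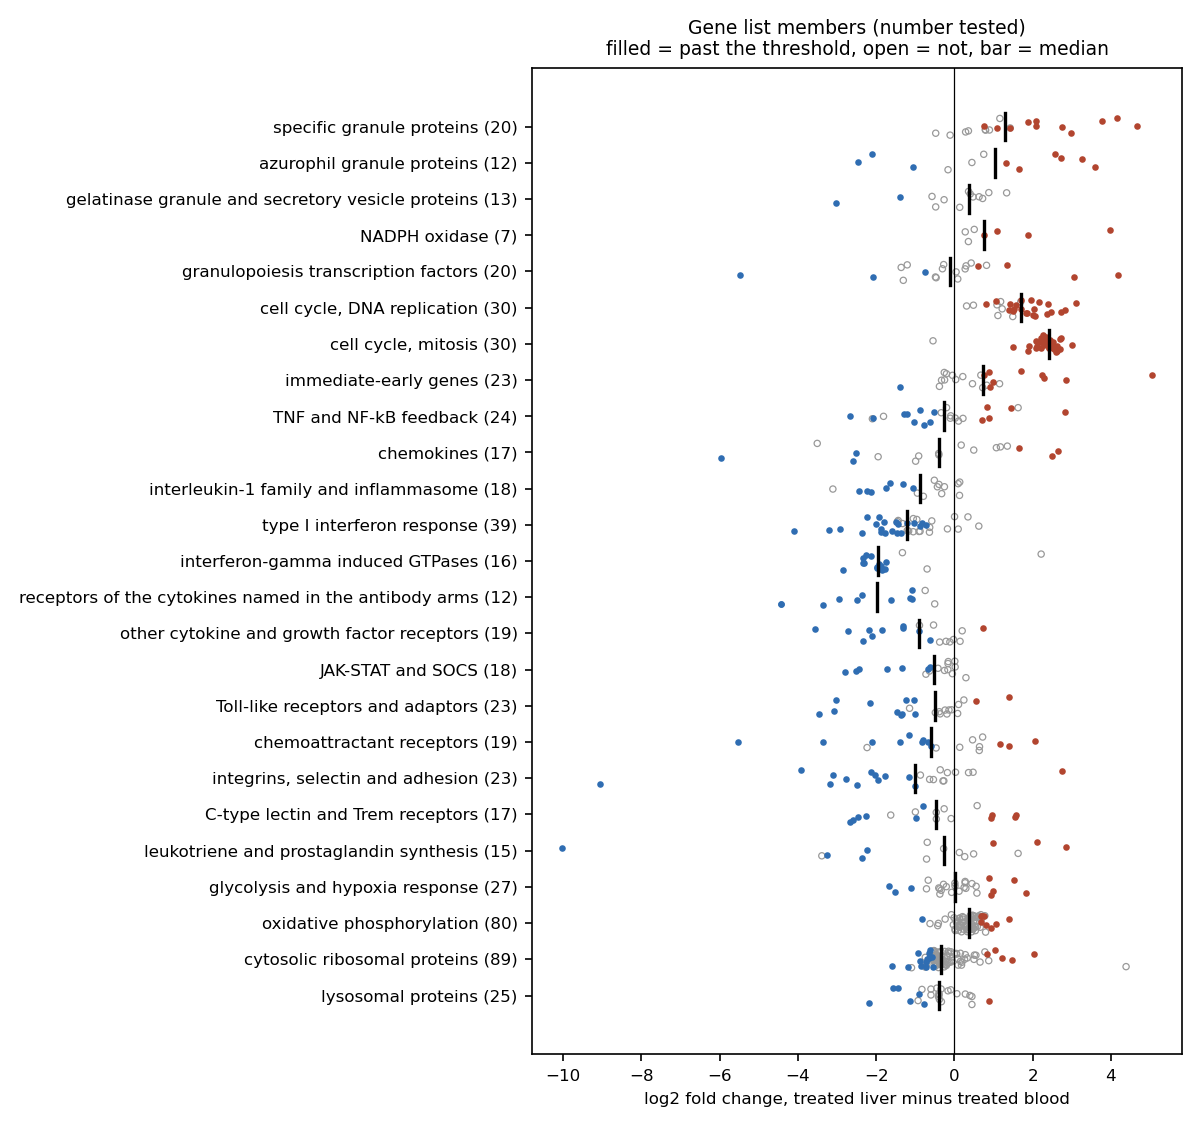
Log2 fold change (x axis) of each tested member of 25 gene lists, with treated liver minus treated blood positive to the right. Filled points passed the threshold, open points did not, and the bar is the median of the list, which lies at 2.42 for mitosis genes, 1.29 for specific granule genes and −1.95 for interferon-gamma induced GTPases.

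Genes of migration and adhesion were more often lower than higher. Of 19 chemoattractant receptors 3 were higher and 9 were lower, and 0 to 1 were higher and 2 to 4 lower with 1 treated library left out. Cxcr2, the receptor for Cxcl2 and related chemokines, had 2244 and 2443 CPM in treated liver, against 4141 and 4091 CPM in treated blood (log2 fold change −0.81 ± 0.19, adjusted p = 0.0146). Each of the 4 left-out libraries ended its call, at an adjusted p of 0.0919 to 0.126. Cxcr4, the receptor that retains neutrophils in the bone marrow and marks aged cells, had 501 and 613 CPM in treated liver, against 351 and 363 CPM in treated blood. Its difference did not pass the threshold (log2 fold change 0.64 ± 0.58, adjusted p = 0.48), although both liver libraries were above both blood libraries. C3ar1, the receptor for complement C3a, had 0.317 and 0.112 CPM in treated liver, against 10.3 and 9.43 CPM in treated blood (log2 fold change −5.53 ± 0.57, adjusted p = 0.000278). Of 23 integrin, selectin and adhesion genes 1 was higher and 12 were lower. There were 8 to 10 lower and 0 to 1 higher when 1 treated library was left out. Itga6, the laminin-binding α6 integrin, had 14.9 and 13.5 CPM in treated liver, against 106 and 88.1 CPM in treated blood (log2 fold change −2.78 ± 0.26, adjusted p = 0.000161). Itga2b of the same list had 0.766 and 0.784 CPM in treated liver, against 425 and 408 CPM in treated blood and is a platelet integrin, so the list overlaps with the platelet markers. Pecam1, an adhesion molecule of platelets, endothelium and leukocytes, had 4.89 and 4.53 CPM in treated liver, against 42.1 and 39.3 CPM in treated blood (log2 fold change −3.11 ± 0.31, adjusted p = 0.000231). Of 14 genes of metalloproteinases and their inhibitors 6 were lower, the inhibitor Timp3 among them, and none was higher. Fewer were lower with 1 treated library left out. Mmp19 had 1.93 and 1.34 CPM in treated liver, against 35.9 and 29.9 CPM in treated blood (log2 fold change −4.33 ± 0.33, adjusted p = 6.09e-05). C-type lectin and Trem receptors were split, 4 higher and 6 lower of 17, or 2 to 3 higher and 2 to 4 lower with 1 treated library left out. The inhibitory lectin Clec12a had 193 and 191 CPM in treated liver, against 65.7 and 66.0 CPM in treated blood (log2 fold change 1.54 ± 0.22, adjusted p = 0.00135). Clec4a2, which also carries an inhibitory motif, had 370.1 and 388 CPM in treated liver, against 127 and 127 CPM in treated blood (log2 fold change 1.58 ± 0.23, adjusted p = 0.00172).

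Lipid mediator genes changed in opposite directions. Of 15 genes of leukotriene and prostaglandin synthesis 3 were higher and 4 were lower, or 1 higher and 2 to 4 lower with 1 treated library left out. Lta4h, the enzyme that makes leukotriene B4, had 356 and 317 CPM in treated liver, against 46.8 and 47.0 CPM in treated blood (log2 fold change 2.84 ± 0.24, adjusted p = 0.000101). Pla2g7, which inactivates platelet-activating factor, had 316 and 346 CPM in treated liver, against 1565 and 1526 CPM in treated blood (log2 fold change −2.22 ± 0.27, adjusted p = 0.00063). Alox12, the platelet 12-lipoxygenase, had 0.211 and 0.0224 CPM in treated liver, against 122 and 115 CPM in treated blood (log2 fold change −10.03 ± 0.58, adjusted p = 1.68e-05).

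Most oxidative phosphorylation and ribosomal protein genes did not pass the threshold. Beside 9.71% of all tested genes higher and 11.6% lower, 8 of 80 oxidative phosphorylation genes were higher and 1 was lower. The number higher was 0 to 1 with 1 treated library left out, 8 to 20 over the other scalings and tools, and 40 in the fit of the 4 treated libraries alone. Of 89 cytosolic ribosomal protein genes 5 were higher and 13 lower, against 0 to 2 higher and 1 to 6 lower with 1 treated library left out, and 5 to 9 higher and 7 to 19 lower over the other scalings and tools. In the fit of the 4 treated libraries alone 10 were higher and 43 lower. Among all genes that fit called 3995 higher and 4193 lower. Of 27 glycolysis and hypoxia genes 5 were higher and 3 lower (2 higher and 1 to 2 lower with 1 treated library left out), with a median log2 fold change between −0.003 and 0.09 over the other scalings and tools. Hk2, hexokinase 2, had 92.2 and 97.4 CPM in treated liver, against 33.1 and 33.1 CPM in treated blood (log2 fold change 1.52 ± 0.15, adjusted p = 0.00023). Among 25 lysosomal genes 1 was higher and 6 were lower, or 0 higher and 1 to 2 lower with 1 treated library left out. Ctsb, cathepsin B, was lower and had 343 and 283 CPM in treated liver, against 859 and 828 CPM in treated blood (log2 fold change −1.43 ± 0.18, adjusted p = 0.000726). Of 24 antioxidant genes 1 was higher and 5 were lower, or 2 lower with 1 treated library left out. The higher one was Prdx6, a peroxiredoxin that uses glutathione, with 255 and 247 CPM in treated liver, against 115 and 109 CPM in treated blood (log2 fold change 1.16 ± 0.20, adjusted p = 0.00329). Srxn1, sulfiredoxin, was lower, with 7.56 and 5.58 CPM in treated liver, against 37.8 and 33.5 CPM in treated blood (log2 fold change −2.44 ± 0.32, adjusted p = 0.000904). Of 23 genes of the Bcl2 family and survival 6 were lower (1 to 2 with 1 treated library left out) and none was higher, and Bcl2 itself had 0.951 and 0.896 CPM in treated liver, against 12.3 and 14.8 CPM in treated blood (log2 fold change −3.87 ± 0.46, adjusted p = 0.000582).

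Genes attributed to regulatory or suppressor neutrophils went both ways. Of 24 tested 4 were higher and 7 were lower. There were 1 to 2 higher and 3 to 4 lower when 1 treated library was left out. Arg1, arginase 1, which depletes arginine, was higher in liver at a low level, with 2.11 and 3.16 CPM in treated liver, against 0.347 and 0.348 CPM in treated blood (log2 fold change 2.92 ± 0.38, adjusted p = 0.000948), and averaged 1033 CPM in untreated liver, where hepatocyte markers were high. Cd274, the checkpoint ligand PD-L1, had 32.4 and 24.6 CPM in treated liver, against 91.4 and 102 CPM in treated blood (log2 fold change −1.76 ± 0.52, adjusted p = 0.0402). Each of the 4 left-out libraries ended its call, at an adjusted p of 0.116 to 0.232, as did untreated blood replicate 2 (0.0526) and either untreated liver library (0.0685 and 0.0678). Havcr2, the checkpoint receptor TIM-3, had 0.925 and 0.493 CPM in treated liver, against 8.57 and 8.20 CPM in treated blood (log2 fold change −3.57 ± 0.49, adjusted p = 0.00114). Among 19 secreted repair factors and cytokines 4 were higher and 6 lower. There were 4 higher whichever treated library was left out, and 1 to 2 lower. Besides Osm these included Vegfa, the vascular growth factor, with 63.4 and 64.9 CPM in treated liver, against 17.7 and 18.2 CPM in treated blood (log2 fold change 1.84 ± 0.22, adjusted p = 0.000635). Tnfsf13b, the B cell survival factor BAFF, was another and had 80.9 and 81.8 CPM in treated liver, against 21.2 and 22.8 CPM in treated blood (log2 fold change 1.89 ± 0.22, adjusted p = 0.000472).

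The largest differences of all were taken among genes whose higher group averaged 10 CPM or more. On the lower side several of the 12 are known platelet genes. Gp6, the platelet collagen receptor, had no count in liver and 54.6 and 49.5 CPM in treated blood, at least 1430-fold lower in liver against a limit of 3 counts over the group. Ppbp, the platelet chemokine precursor, had 0.475 and 0.269 CPM in treated liver, against 724 and 724 CPM in treated blood (log2 fold change −10.93 ± 0.65, adjusted p = 1.75e-05). Nrgn, neurogranin, which platelets carry, had 0.343 and 0.336 CPM in treated liver, against 371 and 347 CPM in treated blood (log2 fold change −10.03 ± 0.32, adjusted p = 1.41e-06). Angpt1, a ligand of the Tie2 receptor, had no count in liver and 19.9 and 16.7 CPM in treated blood, at least 503-fold lower in liver. On the higher side Alb and Car3 are hepatocyte or liver genes. Has2, a hyaluronan synthase, had 14.6 and 15.6 CPM in treated liver, against 0.273 and 0.225 CPM in treated blood (log2 fold change 5.91 ± 0.57, adjusted p = 0.000189). Adgrg7, an adhesion G protein-coupled receptor, had 45.3 and 38.5 CPM in treated liver, against 0.768 and 1.25 CPM in treated blood (log2 fold change 5.36 ± 0.34, adjusted p = 2.35e-05). Chit1, chitotriosidase of phagocytes, had 26.9 and 17.0 CPM in treated liver, against 0.52 and 0.738 CPM in treated blood (log2 fold change 5.11 ± 0.69, adjusted p = 0.00105). Fosl1, an AP-1 subunit, had 24.9 and 20.5 CPM in treated liver, against 0.743 and 0.615 CPM in treated blood (log2 fold change 5.06 ± 0.99, adjusted p = 0.00668). The call was lost, at an adjusted p of 0.0586 and 0.0664, without blood replicate 2 and blood replicate 3. Camp, described above, was the only specific granule gene among these 12.

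The isotype control libraries, of treated liver with an added antibody, were used to see which levels recurred. Their table was normalised separately, so levels set across the tables are a description and no test was made, and the comparison was added after the values were seen. The treated blood libraries are the same ones that made the calls. A gene called for its blood level therefore tends to fall on the liver side, and the shares of all genes do not correct for this. Of 1551 genes higher in treated liver with a value in both tables, 1372 (88.5%) had all 3 isotype libraries above both treated blood libraries, against 45.7% of all genes. Of 1841 genes lower in treated liver 1230 (66.8%) had all 3 isotype libraries below both treated blood libraries, against 30.2% of all genes, and 233 had all 3 above them. All 29 higher mitosis genes, 10 of 11 higher specific granule genes, all 13 lower GTPases and all 12 lower platelet genes lay on the liver side. Other lists did not. Of 10 lower B and plasma cell markers 1 lay on the liver side and 8 had all 3 isotype libraries above both treated blood libraries. All 3 lower dendritic cell markers and 2 of 3 lower MHC class II genes also lay above, with none on the liver side. Of 7 lower regulatory and suppressor genes 2 lay on the liver side and 4 above. Camp, for example, had 7567, 11301 and 11868 CPM in the isotype libraries. Of the 10 lower genes in the receptor list drawn up around the antibody arms 5 lay on the liver side. Il10ra, with 152, 103 and 110.3 CPM in the isotype libraries, overlapped with treated blood. Cd14 lay on the other side, with 1124, 1538 and 1379 CPM in the isotype libraries, above both treated blood libraries. Cxcl2 had 2376, 3996 and 7411 CPM in the isotype libraries, above both treated liver and treated blood.

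The difference between liver and blood was also compared with that in untreated mice, by the interaction in the same fit. It differed for 9143 genes (54.7% of those tested). In this contrast the untreated liver libraries stood apart, with neutrophil identity genes at a mean sum of 35893 CPM and hepatocyte markers at a mean sum of 18376 CPM, and the library names of treated and untreated mice carry different number series, so that treatment and these series cannot be told apart. Camp averaged 549 CPM in untreated liver and 817 CPM in untreated blood, and its liver minus blood difference was larger in treated mice by 5.23 ± 0.88 on the log2 scale (adjusted p = 0.000978). Socs3 averaged 130 CPM in untreated liver and 782 CPM in untreated blood, and its difference between tissues was not shown to depend on treatment (interaction 0.15 ± 0.22, adjusted p = 0.598). Il1b, with an interaction of −0.20 ± 0.43 (adjusted p = 0.71), and Trim30a, with 0.10 ± 0.23 (adjusted p = 0.729), likewise did not pass the threshold.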

How the data were processed

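RNA of neutrophils was sequenced from stranded mRNA libraries (TruSeq), after RNeasy purification, per the labels' protocols. Tools listed in the submitters' processing notes are DESeq2, Partek, STAR 2.5.3a and Bowtie2 2.2.5, without their roles, and the build is mm10. The counting tool is not given in the sources used here. For the 9 libraries of liver and blood the authors deposited expected counts (18474 genes, 44.4% of values not whole), which were rounded. For the isotype libraries they deposited raw counts, used for CPM only.

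Genes were kept by filterByExpr (16719), scaled by TMM and tested with edgeR 4.0.16 (R 4.3.3, limma 3.58.1), with group as the only term. The spread was shared by all 9 libraries (residual degrees of freedom 5). The standard error is the log2 fold change divided by the square root of F. DESeq2 1.42.0 and limma-voom were alternatives, besides other scalings, filters, replicate blocks, library subsets and a minimum fold. Bounds use 3 counts over a group and cover counting error only. No fold or interaction is given for a named gene where treated liver or treated blood had 3 counts or fewer. No libraries were identical. Among tested rows 14 symbols had been turned into dates and were not named.

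The comparison, gene lists and members were chosen with earlier results of these data known, and lists were given counts and medians without a test. Named genes are, per direction, the 12 largest folds with at least 10 CPM and no overlap, the called members of a list with the lowest adjusted p (at most 4), and a set of fixed genes; those printed are a selection made after their values were seen, as were Cd3e, Trf, Clec4f, Cebpa, Gfi1 and Lef1, which the rule did not give. Promoters of 27025 symbols came from RefSeq (GRCm38.p6). Il10, one of the fixed genes, is not analysed here.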

Additional observations from a re-analysis of the deposited data

Results flagged for a closer look

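Of the 92 genes that the naming rule gave and the report names, 61 had a liver minus blood difference in treated mice that differed from the one in untreated mice, by the interaction in the edgeR fit at an adjusted p below 0.05, against 54.7% of all tested genes. The values in brackets are log2 interactions, treated minus untreated, and 34 were above 0 and 27 below. The untreated liver libraries held a mean hepatocyte marker sum of 18376 CPM, against a range of 283 to 341 CPM in the 4 treated libraries, and the part of this in the interaction was not tested.

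Among granule, oxidase and maturation genes the interaction was above 0 for Camp (5.23), Ltf (5.18), Ngp (4.48), S100a8 (3.72), S100a9 (3.58), Cd63 (3.62), Cybb (2.95), Cyba (2.5), Ncf1 (3.07), Hvcn1 (4.83), Cebpe (4.0), Myb (4.36) and Bach1 (0.80), and below 0 for Ctsc (−1.05) and Xbp1 (−1.73). Among cell cycle genes and Tfrc it was above 0 for Cenpa (2.70), Ube2c (1.27) and Tfrc (2.63). Among inflammatory signals it was above 0 for Tnf (2.48), Osm (6.31), Jun (2.26), Fos (3.03), Fosl1 (7.25), Cxcl2 (3.82), Vegfa (3.03) and Tnfsf13b (3.59), and below 0 for Saa3 (−7.52), Nos2 (−6.52), Ccl5 (−6.57), Il1rap (−0.91), Tnfrsf1b (−0.78) and Cd14 (−2.09). Among interferon-induced genes it was below 0 for Irgm2 (−3.87), Igtp (−1.38) and Nlrc5 (−2.34). Among receptors it was below 0 for Il10ra (−1.83), Il27ra (−4.27), Il2rg (−1.55), Il21r (−2.98), Il13ra1 (−0.93), C3ar1 (−5.96) and Havcr2 (−4.14), and above 0 for Cxcr2 (1.16), Cxcr4 (2.30), Clec12a (2.97) and Clec4a2 (3.42). Among adhesion, platelet and protease genes it was below 0 for Itga2b (−2.02), Angpt1 (−6.35), Nrgn (−1.34) and Mmp19 (−6.96), and above 0 for Itga6 (1.48), Has2 (6.75) and Adgrg7 (4.57). Among metabolic, survival and other genes it was above 0 for Lta4h (3.22), Hk2 (2.30) and Cd3d (4.89), and below 0 for Alb (−2.55), Arg1 (−5.41), Bcl2 (−4.24), Srxn1 (−3.21) and Prdx6 (−1.81).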

How the results depend on the processing

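The number of genes that differed between treated liver and treated blood depended on how the spread was estimated. The fit of only the 4 treated libraries called 8188 genes (3995 higher, 4193 lower in liver). With a replicate block by the number in the library name that fit called 8545 (4158 higher, 4387 lower). A replicate block in the fit of all 9 libraries called 5225, of which 2516 were higher. The labels do not say whether like-numbered libraries share mice, and the main fit has no block. Deviations of like-numbered libraries from their group means had a correlation of 0.0187 across genes. With 2 libraries a group that value cannot decide whether the numbers are pairs, and the erythroid sums followed the number. In the fit of the treated libraries with the block, Elane (0.0807), Rrm2 (0.108) and Tfrc (0.128) lost their call. Leaving out 1 of the 9 libraries gave 1467 to 5589 genes (528 to 2698 higher, 758 to 2891 lower), with the low end from the treated libraries and the high end from untreated blood replicate 3. DESeq2 called 4565, limma-voom 4012, RLE scaling 3642, upper-quartile scaling 3560, no filter 3463, a filter of 5 CPM 2926, a fit without untreated liver 3552 and a minimum absolute log2 fold change of 1 called 2809. The share of higher genes among those called was 45.5%, against 51.1% with RLE scaling, 52.4% with DESeq2, 41% with the minimum fold and 35.9% to 49.2% with 1 library left out. The interaction with treatment was called for 7153 to 9991 genes with 1 library left out and 7594 to 9671 in the other fits. None of the 92 genes that the naming rule gave and the report names changed direction under any of these alternatives. Of these genes Cyba lost its call with upper-quartile scaling (0.0568) and with the 5 CPM filter (0.0514), Ncf1 with that filter (0.0528), and Ncf1 and Cd274 without untreated liver (0.0685 and 0.0616). Cyba (0.0508) and Ncf1 (0.0515) also lost it without untreated blood replicate 2, and Ncf1 without untreated liver replicate 1 (0.0726) or 2 (0.0724). Among these alternatives Cxcr4 passed only in the fits of the treated libraries alone (0.00113, and 1.79e-05 with the block), while S100a8 (0.000453) and S100a9 (0.000799) also passed with the replicate block in the fit of all 9 libraries. Each treated group holds 2 libraries, which limits the estimate of its spread.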
